A study of Tachysurus fulvidraco x Tachysurus vachelli with 6 samples.

Results

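Vitellogenin and egg envelope genes were examined in the livers of hybrid yellow catfish, a cross between Tachysurus fulvidraco and Pseudobagrus vachellii. The members were all rows of the deposited gene table whose description, in any case, contains vitellogenin, zona pellucida or choriogenin. There were 33 of them among 28288 genes. Juvenile fish had been fed for 56 days on a diet without Acanthopanax senticosus (Siberian ginseng) powder (C_liver, 0 g/kg) or with 4 g of it per kg of feed (T_liver), and messenger RNA of the liver was sequenced in 3 libraries per group. Both groups were otherwise fed the same ingredients, apart from cellulose that made room for the powder. The sex of the fish is not given in the labels or in the methods. RNA samples of a group were mixed before library preparation, and the methods do not say whether the libraries came from separate fish or how many each holds. n therefore counts libraries, and P values measure only the spread between libraries, which may be technical.

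Vitellogenin is the precursor of egg yolk. In egg-laying vertebrates it is made by the liver of maturing females when estradiol binds the estrogen receptors of hepatocytes, and it is carried in the blood to the ovary, where receptors of the very low-density lipoprotein type take it into the oocyte. The egg envelope around the fish oocyte is built from zona pellucida (ZP) glycoproteins. Depending on the fish, these are made in the ovary, in the liver under estradiol, or in both, and those of liver origin are called choriogenins. Vitellogenin, and envelope transcripts in fish whose liver makes them, are therefore used as signs of estrogen action in fish liver.

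The 33 members comprised 5 rows described as vitellogenin, 13 as ZP sperm-binding protein 3-like (ZP3-like), 11 as ZP sperm-binding protein 4-like (ZP4-like) and 4 as ZP-like domain-containing protein 1 (ZPLD1-like). No row (0 of 28288) was described as choriogenin. ZP3 and ZP4 type proteins are structural parts of the envelope, whereas ZPLD1 is a membrane protein that carries the same domain and is not known as an egg protein. Descriptions are matches in other fish, mostly Ictalurus punctatus, and for 4 of the 5 vitellogenin rows Clarias macrocephalus. A further 3435 rows of the table carry no description and could not be assigned by this rule.

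Many members lay side by side in the genome. On scaffold NW_020847858.1, 9 ZP4-like rows lay between 854078 and 966954, with only 2 other genes among them, 4 on the plus strand and 5 on the minus strand. On scaffold NW_020848110.1, 5 ZP3-like rows lay between 473966 and 549975, all on the plus strand with 1 other gene among them, and 3 more lay on NW_020847923.1 between 623396 and 650666 with none between. Of the vitellogenin rows, 3 were on NW_020847763.1 between 15186146 and 15630193, where 12 other genes lay among them, and 2 were neighbours on NW_020848009.1 between 5875441 and 5899393. The median genomic span was 1927 bp for ZP3-like, 1849 bp for ZP4-like and 7319 bp for vitellogenin rows. Such copies can share reads, and how reads that match several copies were counted is not given in the sources used here, so the value of any single copy is uncertain.

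The counts on genes summed to between 44153673 and 51459627 per library. Of the 33 members, 10 had a count in any library (30.3%), compared with 72.6% of all genes in the table. Only 2 members had a count in all 6 libraries (6.06%, compared with 52.3% of all genes). The 23 members without a count were 12 of the 13 ZP3-like, 7 of the 11 ZP4-like, 2 of the 5 vitellogenin and 2 of the 4 ZPLD1-like rows. A count of 0 allows up to 3 counts, which is 0.0583 to 0.0679 CPM (counts per 1000000 counts) in these libraries. Over all genes and libraries, 771 values were 1, 2 or 3, whereas 1307 were exactly 4, so that a count may not stand for exactly 1 read. If 1 sequenced fragment gave 4 counts, the limit would be 12 counts, or 0.233 to 0.272 CPM. Intervals and limits cover counting error only.

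By library, 8 members had a count in C_liver replicate 1, 6 in C_liver replicate 2 and 3 in C_liver replicate 3. The numbers were 3, 6 and 3 in T_liver replicates 1, 2 and 3. Both groups thus held libraries with 6 or more members and libraries with 3. Of the 10 members with a count, 4 had one in C_liver libraries only, 1 in a T_liver library only and 5 in both groups. A single ZPLD1-like row, LOC113660414, supplied 79.2% of all member counts, and the vitellogenin row LOC113651656 supplied 11.2%.

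**Figure D1:**
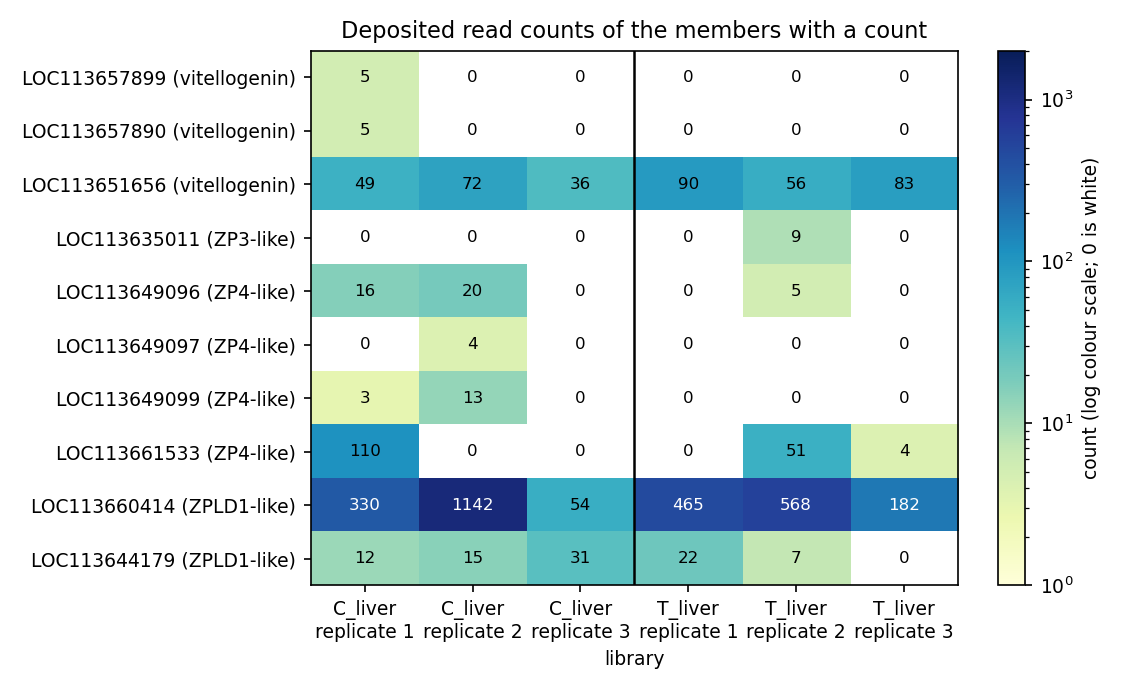
Deposited read counts of the 10 members with a count (rows) in the 6 libraries (columns), with the count printed in each cell and a log colour scale; white cells hold 0. Only LOC113651656 and LOC113660414 have a count in every library, and 4 members have one in a single library.

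The vitellogenin transcript LOC113651656 (scaffold NW_020847763.1, 15606356 to 15613461, minus strand) was present in every library at a low level. It had 49, 72 and 36 counts in C_liver replicates 1, 2 and 3, and 90, 56 and 83 counts in T_liver replicates 1, 2 and 3. As shares of all counts before scaling, the lowest library was C_liver replicate 3 with 0.777 CPM (95% Wilson interval 0.562 to 1.08). The highest was T_liver replicate 1 with 2.04 CPM (1.66 to 2.51). These intervals take each count as 1 read, and they would be wider if 1 fragment gave 4 counts. No library stood apart with a level many times that of the others. After TMM normalization the levels were 0.914, 1.31 and 0.910 CPM in C_liver and 2.15, 1.23 and 1.54 CPM in T_liver. C_liver replicate 2 lay above T_liver replicate 2, so the groups overlapped.

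The other vitellogenin rows were at or near 0. LOC113657890 and LOC113657899, the neighbours on NW_020848009.1, had 5 counts each in C_liver replicate 1 and 0 in the other 5 libraries. LOC113651665, which lies 9414 bp from LOC113651656, and LOC113651444, described as vitellogenin-like, had 0 counts in all 6. The detected row is thus 1 of 3 on its scaffold. The nearest gene on its other side, ctbs, encodes the lysosomal enzyme di-N-acetylchitobiase, lies 1523 bp away on the same strand and had 806 to 1310 counts per library. The counts of LOC113651656 were 3.13% to 10.2% of those of ctbs, and they were lowest relative to ctbs in C_liver replicate 3 and highest in T_liver replicate 1.

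Per transcript length, vitellogenin was far below related lipid transfer genes in these livers. Its deposited FPKM value lay between 0.179 and 0.476, and by FPKM it ranked between 12924th of 16719 genes with a count (T_liver replicate 1) and 14963rd of 17687 (C_liver replicate 1). Apolipoprotein B, the main protein of very low-density lipoprotein, belongs to the same family of large lipid transfer proteins. Its row LOC113655586 had an FPKM of 154 to 474, which within each library was 338 to 2027 times that of vitellogenin. Another member of that family, mttp, encodes the microsomal triglyceride transfer protein that loads lipid onto apolipoprotein B. It had an FPKM of 15.7 to 30.2, or 43.5 to 169 times that of vitellogenin. The similar row LOC113639813 had an FPKM of 10.1 to 52.7, or 21.3 to 275 times that of vitellogenin. In mature females of many fish, vitellogenin is among the most abundant liver transcripts. No library had such a level. The fish were juveniles when feeding began and their maturity is not given, so the low level does not tell their sex.

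**Figure D2:**
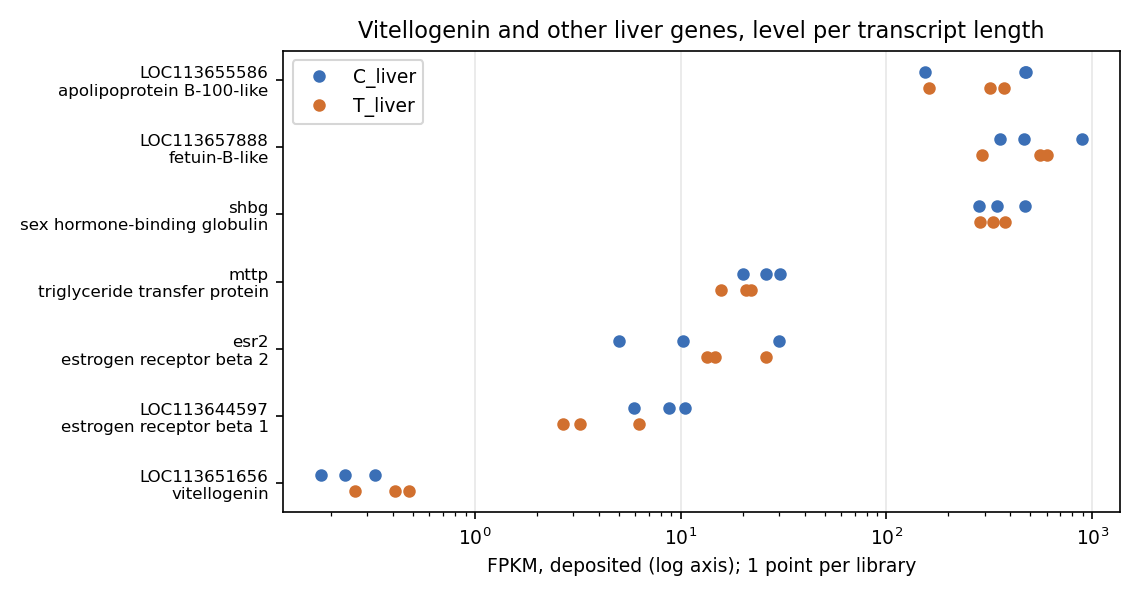
Deposited FPKM (log axis) of the detected vitellogenin row and of 6 other liver genes, with 1 point per library (blue, C_liver; orange, T_liver). Vitellogenin lies between 0.179 and 0.476 in all 6 libraries, and apolipoprotein B-100-like lies between 154 and 474.

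The egg envelope rows proper, ZP3-like and ZP4-like, were detected in some libraries and not in others. Of these 24 rows, 5 had a count. The highest was LOC113661533, a ZP4-like row outside the cluster (scaffold NW_020848070.1, 5568187 to 5571148, minus strand). It had 110, 0 and 0 counts in C_liver replicates 1, 2 and 3, and 0, 51 and 4 counts in T_liver replicates 1, 2 and 3. At 1.38 and 0.629, its FPKM in C_liver replicate 1 and T_liver replicate 2 was above that of vitellogenin in the same libraries, while 3 libraries had no count. The neighbouring gene ints8, a subunit of the integrator complex that processes small nuclear RNAs, lies 619 bp away on the other strand and had 724 to 1338 counts, with no library near 0.

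Within the cluster on NW_020847858.1, 3 of the 9 ZP4-like rows had counts. LOC113649096 (862342 to 864190) had 16, 20 and 0 counts in C_liver and 0, 5 and 0 in T_liver. LOC113649099 (949585 to 951425) had 3, 13 and 0 in C_liver and 0 in each T_liver library, and LOC113649097 (897861 to 899698) had 4 counts in C_liver replicate 2 only. The nearest rows on both sides of LOC113649096 and of LOC113649099 are also ZP4-like and had 0 counts in all 6 libraries. The only ZP3-like row with a count was LOC113635011 (scaffold NW_020848173.1, 610975 to 612899, minus strand), with 9 counts in T_liver replicate 2. It lies within the span of abhd3, a gene on the plus strand that encodes a phospholipase and had 117 counts in that library, its highest, against 0 to 52 in the others. Whether the counting used strand is not given in the sources used here, so reads of this pair cannot be told apart.

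Summed over the ZP3-like and ZP4-like rows, the counts were 129, 37 and 0 in C_liver replicates 1, 2 and 3, and 0, 65 and 4 in T_liver replicates 1, 2 and 3. Envelope transcripts were therefore found mainly in C_liver replicates 1 and 2 and T_liver replicate 2, which are not the libraries with the highest vitellogenin. These 3 libraries also had the largest total counts on genes (48456874, 51459627 and 49343836). The valid reads that the paper reports gave another order of the libraries. By valid reads, C_liver replicate 2 and T_liver replicate 2 were still highest, but C_liver replicate 1 lay below T_liver replicates 1 and 3. Summed counts of germ cell transcripts were also highest in C_liver replicates 1 and 2 and T_liver replicate 2, which was not tested. Of 12 rows on a list of germ cell and oocyte genes, 4 had a count in any library, with summed counts of 22, 42 and 4 in C_liver and 5, 35 and 0 in T_liver. The listed genes dazl, dnd1, gdf9, figla, NOBOX and bone morphogenetic protein 15-like were at 0 in all 6 libraries. A row described as piwi-like protein 1 (LOC113635096), which in animals guards germ cells against transposons, had 16 and 6 counts in C_liver replicates 1 and 2, 5 in T_liver replicate 1 and 0 elsewhere. The rows piwil1 and LOC113651661, of the same description, had 0 counts in all 6 libraries. The RNA helicase of germ cells ddx4 (vasa) had 6, 24 and 0 counts in C_liver and 0, 24 and 0 in T_liver. The oocyte gene zar1 had 12 counts in C_liver replicate 2, 11 in T_liver replicate 2 and 0 elsewhere. The remaining row with a count, sycp3, had 4 in C_liver replicate 3 and 0 elsewhere. No count of these rows was above 24, where the limit was 12 if 1 fragment gave 4 counts. Of 6 rows on a list of gonad soma genes, 4 had a count, and they did not share an order of the libraries. FOXL2 (LOC113653730), a transcription factor of ovarian granulosa cells, had 11 and 12 counts in C_liver replicates 1 and 2, 7 in T_liver replicate 2 and 0 elsewhere. A FOXL2-like row (LOC113658200) had 15, 27 and 40 counts in C_liver and 28, 33 and 4 in T_liver. Aromatase (LOC113640941) had counts only in C_liver replicate 2 (27) and T_liver replicate 3 (12), amh was highest in C_liver replicate 3 (10.7 CPM), and the receptor of follicle-stimulating hormone was at 0. The part of depth and of germ cell or ovary RNA in the envelope counts was not tested.

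**Figure D3:**
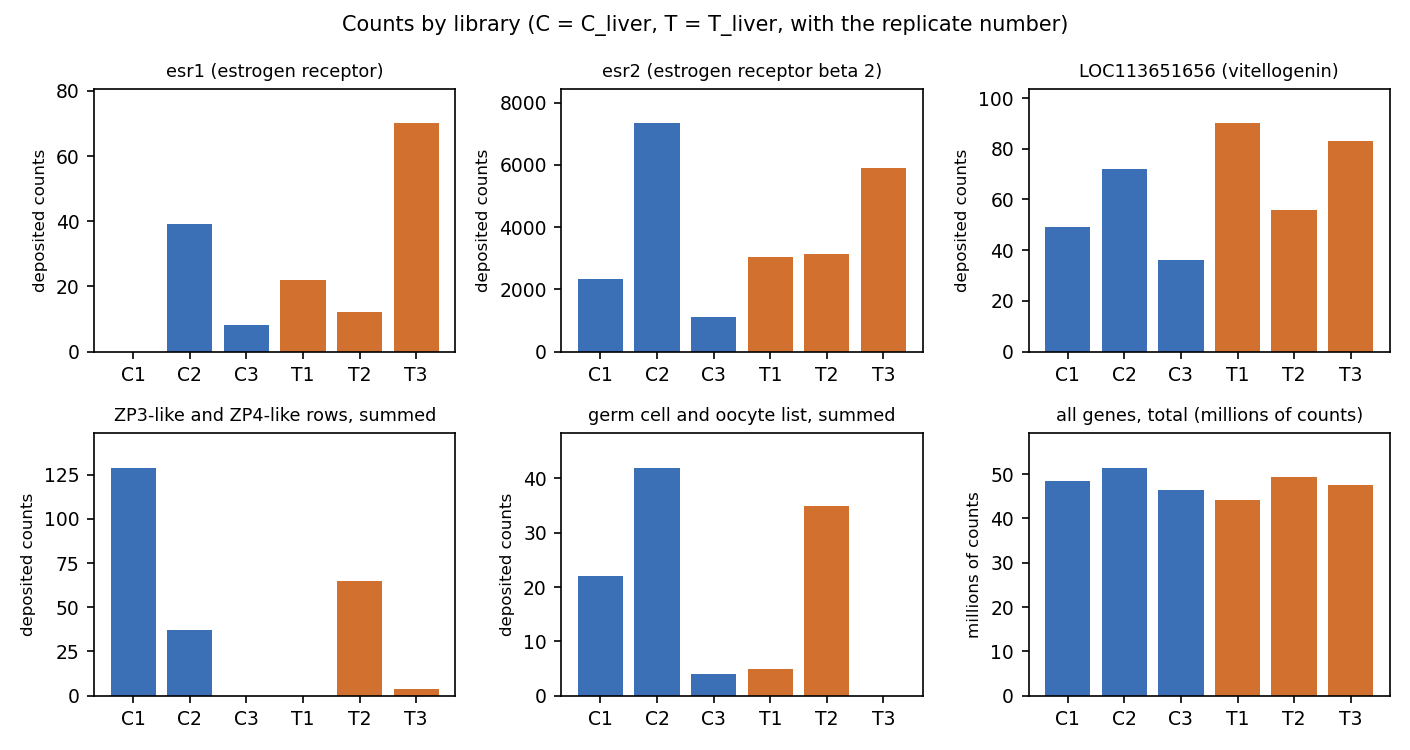
Deposited counts in each library (bars from 0; blue, C_liver; orange, T_liver; 1 library per bar) of esr1, esr2, vitellogenin LOC113651656, the summed ZP3-like and ZP4-like rows, the summed germ cell and oocyte list, and all genes, in units of 1000000 counts. The envelope rows and the germ cell list are highest in C1, C2 and T2, whereas esr1 and esr2 are highest in C2 and T3.

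The highest member by far was ZPLD1-like and not an envelope gene. LOC113660414 (scaffold NW_020848041.1, 1755795 to 1759420, plus strand) had 330, 1142 and 54 counts in C_liver replicates 1, 2 and 3, and 465, 568 and 182 counts in T_liver replicates 1, 2 and 3. This corresponded to 6.16, 20.8 and 1.36 CPM in C_liver and 11.1, 12.5 and 3.37 CPM in T_liver. The highest and the lowest library were both C_liver, and all 3 T_liver libraries lay between them. No other member reached a mean FPKM of 1, and its own was 5.76.

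LOC113660414 ends 156 bp from the end of LOC113660415, a gene on the minus strand that is described only as an uncharacterized protein and was among the abundant transcripts of these livers. The neighbour had 20755, 201564 and 5848 counts in C_liver replicates 1, 2 and 3, and 44355, 96666 and 28627 in T_liver replicates 1, 2 and 3. The order of the libraries was nearly the same in both genes, with C_liver replicate 2 highest, T_liver replicates 2 and 1 next and C_liver replicate 3 lowest. The counts of LOC113660414 were 0.567% to 1.59% of those of its neighbour. The annotated spans of these convergent genes do not overlap, so only reads that run past an annotated end could not be assigned without strand. The part of the neighbour in the level of LOC113660414 was not tested. The other ZPLD1-like row with counts, LOC113644179 (scaffold NW_020847763.1, 2454874 to 2462584, plus strand), had 12, 15 and 31 counts in C_liver and 22, 7 and 0 in T_liver, and the row next to it, LOC113645750, had 0 counts in all 6 libraries.

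**Figure D4:**
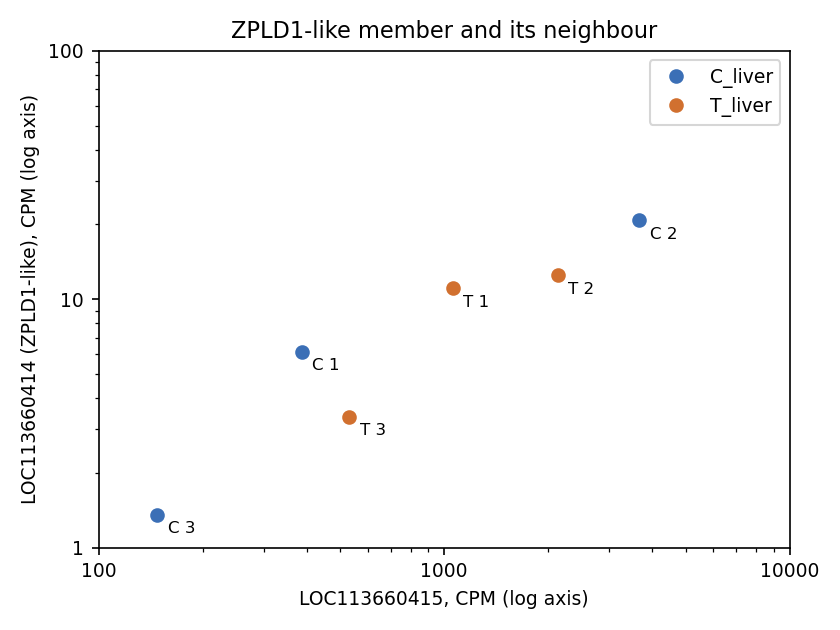
CPM after TMM normalization of the ZPLD1-like row LOC113660414 against that of its convergent neighbour LOC113660415 (both log axes), with 1 point per library labelled by group and replicate. C_liver replicate 2 is highest in both genes (20.8 and 3670 CPM) and C_liver replicate 3 is lowest in both (1.36 and 148 CPM).

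T_liver was compared with C_liver to ask whether the diet with A. senticosus changed these transcripts. No member passed the thresholds for a difference. By the study's thresholds, a gene was called DE where edgeR's quasi-likelihood test gave a P under 0.05 before adjustment and a change of 1 or more on the log2 scale in either direction. Among the 11521 genes whose mean FPKM reached 1, 3.11% were DE genes, and the 1 member among them was not. Among all 20547 genes with a count, fitted without that filter, 3.77% were DE genes, and 0 of the 10 members with a count were. At shares this low, 0 of 10 is likely for any 10 genes, so the 0 is no result about the members. The number with an unadjusted P under 0.05 was 0 in edgeR, where the smallest was 0.128, and also 0 in DESeq2 (smallest 0.240) and in limma (smallest 0.0891). DESeq2 gave no P for 1 of the 10 members, LOC113661533. After Benjamini-Hochberg adjustment, 0 of the 11521 genes had an adjusted P under 0.05 in edgeR, whereas 42 did in DESeq2. The groups overlapped in all 10 members, compared with 10.5% of the genes with a count whose groups did not overlap. Most of the 10 had a count of 0 in both groups, which makes the groups overlap whatever the other counts, so this comparison cannot decide.

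For vitellogenin LOC113651656 the C_liver mean was 1.04 ± 0.230 CPM and the T_liver mean 1.64 ± 0.467 CPM (SD, n = 3 each). The log2 fold change of T_liver against C_liver was 0.64 with a standard error of 0.56 and an edgeR adjusted P of 0.778, and the exact 2-sided permutation p was 0.2, where 3 libraries against 3 cannot go below 0.1. The difference was thus about the size of its standard error. For LOC113660414 the means were 9.43 ± 10.1 CPM in C_liver and 9.0 ± 4.92 CPM in T_liver (SD, n = 3 each). Its log2 fold change was -0.07 with a standard error of 0.89 and an edgeR adjusted P of 0.986. It was 1.25 without C_liver replicate 2 and 0.32 without T_liver replicate 3, so that single libraries set the sign. For LOC113661533 the log2 fold change was -0.78 (standard error 2.24, edgeR) and rested on C_liver replicate 1. Without that library C_liver had no count of it, and the fitted value of 7.25 then depends on the prior count and gives no size. The standard errors of LOC113661533 and LOC113649096 (2.55) were above 2, and they are approximate in rows with so many libraries at 0. Even the fitted difference of -2.52 for LOC113649096 could not be told from the spread between libraries. In bulk liver, fewer cells of a type and less RNA per cell cannot be told apart.

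Few of the steroid receptor and yolk uptake genes reached the mean FPKM of 1. Among the receptors and steroid genes, 12 rows were found, 10 had a count and 4 were tested, of which 1 was a DE gene at a lower and 0 at a higher level (1.61% and 1.49% of all tested genes). The DE gene was LOC113644597, described as estrogen receptor beta 1, with 41.1, 24.3 and 44.5 CPM in C_liver and 12.4, 29.7 and 12.4 CPM in T_liver. T_liver replicate 2 lay above C_liver replicate 2, so the groups overlapped. In edgeR its log2 fold change was -1.01 with a standard error of 0.43, at a P of 0.0474 before and 0.676 after adjustment. The call was lost in limma (-0.93 on the log2(FPKM + 1) scale), without C_liver replicate 1 (-0.92) or 3 (-0.85), and without T_liver replicate 1 (-0.79) or 3 (-0.80). The gene shbg, for the plasma globulin that binds sex steroids, was the highest of the list, at a mean FPKM of 348, and its difference was -0.18 on the log2 scale (standard error 0.35).

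The receptor that in fish liver rises with estradiol and drives vitellogenin, esr1, was scarcely detected. It had 0, 39 and 8 counts in C_liver replicates 1, 2 and 3, and 22, 12 and 70 in T_liver replicates 1, 2 and 3. Its highest libraries, T_liver replicate 3 and C_liver replicate 2, were the same as those of esr2 (estrogen receptor beta 2), which had 2335, 7332 and 1099 counts in C_liver and 3053, 3126 and 5899 in T_liver. The row LOC113640941, described as the aromatase that makes estradiol from androgens, had 27 counts in C_liver replicate 2, 12 in T_liver replicate 3 and 0 elsewhere. The membrane estrogen receptor gper1 had 12 and 8 counts in the same libraries and 0 elsewhere. GREB1-like (LOC113635037), named after a gene that in human breast cells is induced by estrogen, is the next row after LOC113635011 and was also highest there, with 238, 2743 and 513 counts in C_liver and 846, 416 and 4227 in T_liver. Vitellogenin in those libraries, at 1.31 and 1.54 CPM, was within the range of the others. Other rows of the list had another order. Estrogen receptor beta 1 (LOC113644597) was highest in C_liver replicates 3 and 1, hsd17b2 in T_liver replicate 2 (58 counts) and shbg in C_liver replicate 3 (1070 CPM). By CPM after TMM normalization, the androgen receptor rows ar and LOC113634356 were highest in T_liver replicate 3 and next highest in T_liver replicate 1. By counts, LOC113634356 was next highest in C_liver replicate 1 (192, against 173 in T_liver replicate 1). Whether these rows share a signal was not tested.

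Of 14 rows on the list for uptake and processing of yolk, 11 had a count and 3 were tested, with 0 DE genes. The receptor vldlr, which takes up vitellogenin in the oocyte, was low, with 141, 125 and 285 counts in C_liver and 126, 32 and 111 in T_liver. The highest was LOC113652590, a cathepsin D, the type of protease that cleaves vitellogenin in the oocyte and acts in lysosomes of other cells, at a mean FPKM of 51.1, and its log2 fold change was -0.31 (standard error 0.37). All 4 lipid transfer relatives were tested, with 0 DE genes and a median log2 fold change of -0.36, where that of all tested genes was 0.00. LOC113639813, similar to the microsomal triglyceride transfer protein, had 153, 123 and 184 CPM in C_liver and 34.5, 118 and 77.1 in T_liver. Its groups did not overlap, which held for 13.1% of tested genes. The log2 fold change was -1 (edgeR P 0.0587 before adjustment). In the fit without the filter it was called DE (-1.01, edgeR P 0.0439 before adjustment). The apolipoprotein B row LOC113655586 had a log2 fold change of -0.30 (standard error 0.46). Fetuin-B (LOC113657888), a plasma protein that in mammals keeps the zona pellucida from hardening too early, had a mean FPKM of 527 and differed by -0.30 on the log2 scale (standard error 0.49).

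Other proteins with a ZP domain, or described like such proteins, numbered 47 rows, of which 24 had a count and 7 were tested, with 0 DE genes and a median log2 fold change of 0.37. The highest, LOC113663361, described as similar to deleted in malignant brain tumors 1, had 2459, 4 and 0 counts in C_liver replicates 1, 2 and 3, and 905, 1637 and 1518 in T_liver. Its libraries at or near 0 were C_liver replicates 2 and 3, whereas those of LOC113661533 were C_liver replicates 2 and 3 and T_liver replicates 1 and 3. The gene oit3, a liver-enriched gene with a ZP domain, had 66.2, 81.3 and 60.1 CPM in C_liver and 34.8, 57.0 and 55.7 CPM in T_liver. The groups did not overlap, which held for 13.1% of tested genes, and the log2 fold change of -0.49 (standard error 0.28) did not pass the threshold. In the fit without the filter, LOC113635897, also described as similar to deleted in malignant brain tumors 1, was called DE (-7.22, edgeR P 0.0424 before adjustment). It had 52, 0 and 7 counts in C_liver and 0 in each T_liver library, so that the fitted value gives no size.

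The labelled tissue was checked by marker genes. Hepatocyte markers summed to between 74800 and 129000 CPM, with 0 DE genes among 31 tested, compared with 3.11% of all tested genes. A single row, the apolipoprotein A-I-2-like LOC113652856, supplied 32800 to 80000 CPM of these sums. Of 23 tested rows on the exocrine pancreas list, 15 were DE genes at higher and 0 at lower levels in T_liver, and the median log2 fold change of the list was 2.33. The list holds cpb2, a carboxypeptidase of plasma that the liver makes, at 711 to 1040 CPM. Without it, a choice made after the values were seen, the list summed to 89.5 to 297 CPM in C_liver and 370 to 1110 CPM in T_liver. The trypsin row LOC113655609 was among these (log2 fold change 2.83). Hemoglobin rows summed to 785, 833 and 4340 CPM in C_liver and 1100, 2740 and 442 in T_liver. From the gonad soma list, 1 row was tested. This was amh, which encodes anti-Müllerian hormone and had 6.03, 8.59 and 10.7 CPM in C_liver and 4.47, 4.80 and 4.58 in T_liver. Its groups did not overlap, which held for 13.1% of tested genes. The log2 fold change of amh was -0.87 (standard error 0.29), below the fold change threshold in size. Its edgeR P was 0.0187 before and 0.676 after adjustment.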

How the data were processed

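Messenger RNA of liver was sequenced by the authors in 3 C_liver and 3 T_liver libraries, and reads were aligned with HISAT to the T. fulvidraco genome. The submitters' processing notes also name HISAT2 2.0, StringTie 1.3.0, Bowtie 0.12.2 and the mouse build mm8, without a role. For the counting tool, its strand setting and the build of the coordinates: not given in the sources used here. Counts were deposited as whole numbers per gene and library, and whether they had been scaled is not given in the sources used here. In C_liver replicates 1 and 3 and T_liver replicate 3 they summed to more than the valid reads that the paper reports. FPKM values were calculated by the authors, who list a gene that has no count at 0.0001. Sequences of the members were not used here.

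Counts were scaled by TMM and compared with edgeR 4.0.16 in R 4.3.3 (quasi-likelihood test, no covariate, adjustment by Benjamini-Hochberg over all tested genes). Genes whose mean FPKM reached 1 were tested, and members below that were taken from the fit of all genes with a count. Standard errors given with edgeR values are the absolute log2 fold change over the square root of the F statistic, and are approximate. limma 3.58.1 on log2(FPKM + 1) and DESeq2 1.42.0 were alternatives. The scripts were tested on simulated counts. Total counts per library were 44153673 to 51459627, and Wilson intervals were computed with scipy 1.17.1.

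Members with at least 10 counts in a library were described in full. From the lists of related genes, DE genes and the highest gene were named. Other listed genes and the neighbouring genes were picked once their values had been seen. These include esr1, esr2, gper1, aromatase, GREB1-like, FOXL2, trypsin, oit3, amh, vldlr, cpb2, hsd17b2, the androgen receptor rows, sycp3, LOC113639813 and LOC113635897. The members and lists were chosen with earlier results of these data known.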

Additional observations from a re-analysis of the deposited data

How the results depend on the processing

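The number of DE members was 0 under all 12 alternatives. These were 2 other scalings, no filter, DESeq2, limma, a replicate block and leaving out each library. Except with no filter, the fits held only genes whose mean FPKM reached 1. LOC113660414 was the only member in them, so their 0 covers that row alone. The number of members tested rose from 1 to 10 with no filter and to 3 with a minimum mean FPKM of 0.1, and 6 rather than 10 had at least 10 counts in a library. Without LOC113660414, the mean of the summed member levels fell from 12 to 2.56 CPM in C_liver and from 11.4 to 2.37 CPM in T_liver. The 358 DE genes over all tested genes became 774 with no filter, 190 with limma, 521 with DESeq2 and 255 to 651 with a library left out (651 without T_liver replicate 2, 622 without C_liver replicate 2), and the 1 DE gene of the related lists became 3 with no filter and 0 to 3 with a library left out. The log2 fold change of LOC113660414 turned to 0.21 with limma, on the log2(FPKM + 1) scale, and to 0.47 with the replicate block, and lay between -0.58 and 1.25 with a library left out. That of LOC113661533 turned to 3.00 with the replicate block and lay between -4.08 and 7.25. The cause was not tested. Library numbers did not pair the groups (correlations of deviations -0.11, 0.05 and -0.15), and the replicate block gave 329 DE genes and ended the call of LOC113644597 (-1.12). The log2 fold change of vitellogenin LOC113651656 was between 0.41 and 0.84 in the count fits. Its limma difference of 0.15 is on the log2(FPKM + 1) scale, which shrinks values this low. Of the envelope rows, only LOC113661533 had over 20 counts in a library.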
